A study of Mus musculus with 6 samples.

Results

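The genes described here encode the secreted growth factors of the Fgf, Wnt, Bmp, Gdf, Tgfb, Pdgf and activin families, as measured by RNA sequencing of whole sciatic nerves of the mouse. Members were chosen by a symbol rule, which was set with earlier results of these data known. It took in every gene named Fgf, Wnt, Bmp or Gdf followed by a number and, where present, the letter a or b, together with Tgfb1 to Tgfb3, Pdgfa to Pdgfd and the activin subunit genes Inhba and Inhbb. This gave 71 of the 39174 genes in the tables, with 22 Fgf, 19 Wnt, 11 Bmp, 10 Gdf, 4 Pdgf, 3 Tgfb and 2 activin subunit genes. The nerves came from 3 wild-type mice, numbered 2, 4 and 5, and from 3 mice labelled Plekhg5-/- (here Plekhg5-deficient, or deficient), numbered 2, 3 and 5. All animals were adults, aged 12 months, without treatment, and the labels give the deficiency for the whole animal. The sources used here give neither the sex nor how the allele was made. The comparison asked whether loss of Plekhg5, a guanine nucleotide exchange factor, goes with other transcript levels in the nerve, and here it is read for the ligand genes.

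The sciatic nerve holds axons, the Schwann cells that ensheath them, endoneurial fibroblasts, perineurial cells, vessels and macrophages, and these cells signal to one another through secreted factors. Fgf ligands act through receptor tyrosine kinases, Wnt ligands through Frizzled receptors and their co-receptors, and Pdgf ligands through a pair of related tyrosine kinases. Most Bmp, Gdf, Tgfb and activin ligands act through receptor serine kinases that phosphorylate Smad proteins. Some genes carry a family name without such a role, among them Bmp1, which encodes a procollagen protease. Others are Fgf11 to Fgf14, which encode intracellular Fgf homologous factors that stay in the cell and bind voltage-gated sodium channels of neurons.

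Levels are given in FPKM, a count of fragments that takes transcript length and library size into account, after division by 1 scaling factor per library. Plekhg5 itself checked the labels: it lay between 3.65 and 5.26 FPKM in the wild-type nerves and between 0.0521 and 0.141 FPKM in the deficient nerves, with a log2 fold change of -2.26 (SE 0.18, adjusted p = 0.0380 from limma). Fold changes in log2 are Plekhg5-deficient minus wild-type on the scale log2(FPKM + 1), which understates the change of low genes. Some libraries stood apart. Wild-type nerve 5 held lymphoid transcripts, with a summed T-cell marker level of 72.2 FPKM against at most 3.30 FPKM in the other 5 libraries. Plekhg5-deficient nerve 5 held the most muscle and erythroid transcripts, and both nerves numbered 5 were lower in neuronal transcripts than all other nerves. The summed levels of 17 of 17 lists of cell type markers overlapped between the genotypes, among them myelinating Schwann cells, fibroblasts (2135 to 3311 FPKM in wild-type and 1998 to 2568 FPKM in the deficient nerves), perineurium (177 to 249 and 180 to 240 FPKM) and macrophages (62.4 to 166 and 66.8 to 185 FPKM). The Schwann cell and nerve sheath markers that define this tissue were thus present in every library. Overlap was common with 3 nerves against 3. The genotypes were free of overlap for only 5.88% of all genes tested in the lower and 5.69% in the higher direction. In whole nerves, fewer cells of a type and less RNA per cell cannot be told apart. The p-values rest on the spread among 3 animals per genotype, which limma draws towards a trend of the variance over all genes tested.

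Of the 71 ligand genes, 29 averaged at least 1 FPKM over the 6 libraries and 9 at least 10 FPKM. The highest level in the wild-type nerves was that of Fgf1, which encodes a broadly acting Fgf without a signal peptide for secretion, at 81.8 ± 28.4 FPKM (SD, n = 3). It was followed by the homologous factor gene Fgf13 at 46.6 ± 35.3 FPKM and by Pdgfa, which encodes the A chain of Pdgf, at 27.0 ± 4.41 FPKM. Fgf7, which encodes a keratinocyte growth factor made by stromal cells, stood at 19.4 ± 6.27 FPKM. Tgfb1 at 18.7 ± 4.94 FPKM and Tgfb3 at 17.6 ± 3.84 FPKM were the leading genes of their family, and Bmp7 at 16.4 ± 5.52 FPKM and Gdf10 at 12.8 ± 6.19 FPKM those of the Bmp and Gdf ligands. The highest Wnt gene was Wnt6 at 9.03 ± 1.66 FPKM. These steps were small beside the spread between animals: for each of the 32 members above 1 FPKM in the wild-type mean, the range over the 3 wild-type nerves overlapped with the range of the next member in the order.

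**Figure D1:**
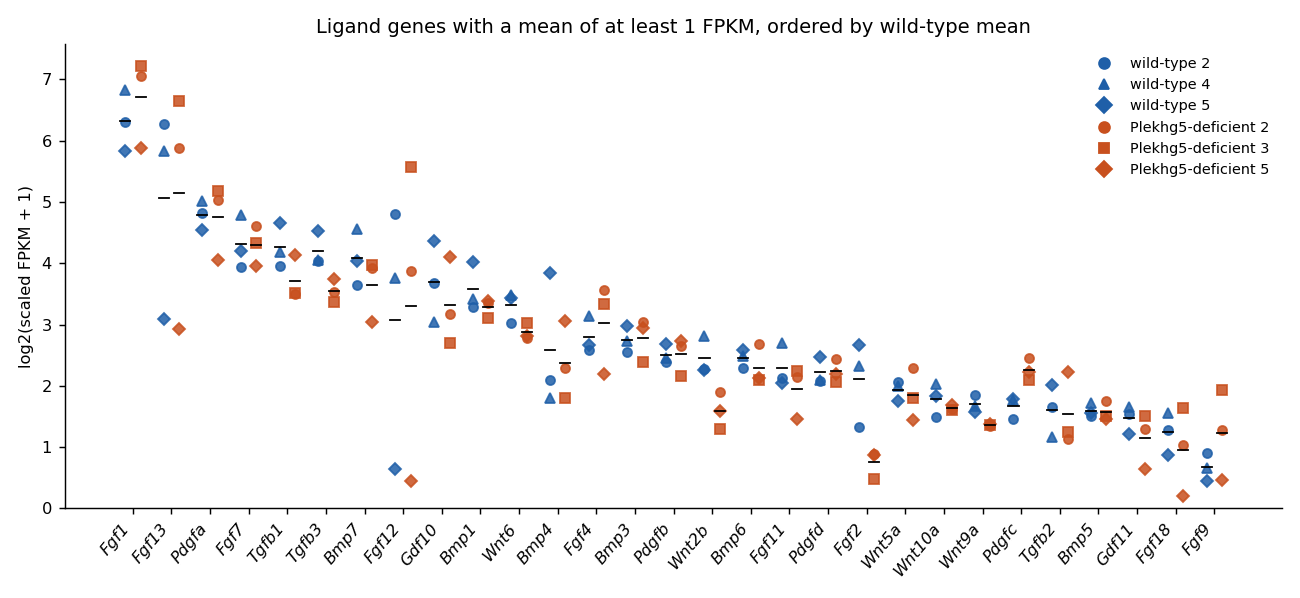
Levels of the 29 ligand genes that averaged at least 1 FPKM in each of the 6 sciatic nerves, on a log2(scaled FPKM + 1) axis. Symbols show the animals, short bars the mean of 3 nerves per genotype, and genes are ordered by the wild-type mean. Fgf1 leads, and the 2 nerves numbered 5 sit far below the others for Fgf13 and Fgf12.

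At the other end, 16 members did not reach a mean of 0.1 FPKM in either genotype and were not tested. The highest of them was Fgf21 with a mean of 0.0575 FPKM, and all 3 endocrine Fgf genes (Fgf15, Fgf21 and Fgf23), whose products circulate as hormones, belonged to this group. Bmp10, Gdf2, Fgf8, Fgf20 and Wnt3a were listed at 0 in all 6 libraries. Of the 55 members tested, 45 passed this filter in both genotypes, 7 only in wild-type (Gdf1, Gdf15, Fgf16, Fgf17, Wnt3, Wnt16 and Bmp8a) and 3 only in the deficient nerves (Fgf3, Gdf3 and Wnt7a).

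No ligand gene passed the test across all 21285 genes. At an adjusted p under 0.05 from limma, 0 of 55 ligands were lower and 0 were higher in the deficient nerves, where 0.0094% of all genes tested were lower and 0.0282% were higher. The adjusted p of the ligands lay between 0.540 and 1.0. At an unadjusted p under 0.05, 6 ligands (10.9%) were lower, against 2.69% of all genes, and 3 (5.45%) were higher, against 2.41% of all genes. The 3 nerves of one genotype all lay below the 3 of the other for 10 ligands in the lower direction (18.2%, against 5.88% of all genes) and for 3 in the higher direction (5.45%, against 5.69% of all genes). Of these, 4 of the 10 (Bmp8a, Gdf1, Gdf15 and Wnt16) and 2 of the 3 (Fgf3 and Gdf3) passed the filter on low values only through the genotype in which they were higher, so the shares are no measure of all members. Of the 9 ligands at an unadjusted p under 0.05, 5 passed the filter on low values in both genotypes (Inhbb, Fgf2, Wnt2b, Tgfb3 and Pdgfc), while Gdf15 and Wnt16 passed it only through the wild-type nerves and Fgf3 and Gdf3 only through the Plekhg5-deficient nerves. The fold change was below 0 for 38 ligands and above 0 for 17, where 48.9% of all genes were below 0, with a median log2 fold change of -0.13, against 0.0065 over all genes. Since the members were chosen with earlier results of these data known, these counts and shares are descriptions only.

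These counts moved with single libraries. Without wild-type nerve 2, 0 ligands were higher at an unadjusted p under 0.05 (1.79% of all genes) and 16 were lower without overlap (11.4% of all genes). Without Plekhg5-deficient nerve 5, 5 ligands were higher at an unadjusted p under 0.05 (2.84% of all genes), 7 were higher without overlap (12.0% of all genes) and 15 were lower without overlap (12.4%). Without both nerves numbered 5, 17 ligands were lower and 7 higher without overlap, against 17.8% and 18.8% of all genes, and the median was -0.072. With fewer libraries the genotypes separated for a larger share of all genes.

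**Figure D2:**
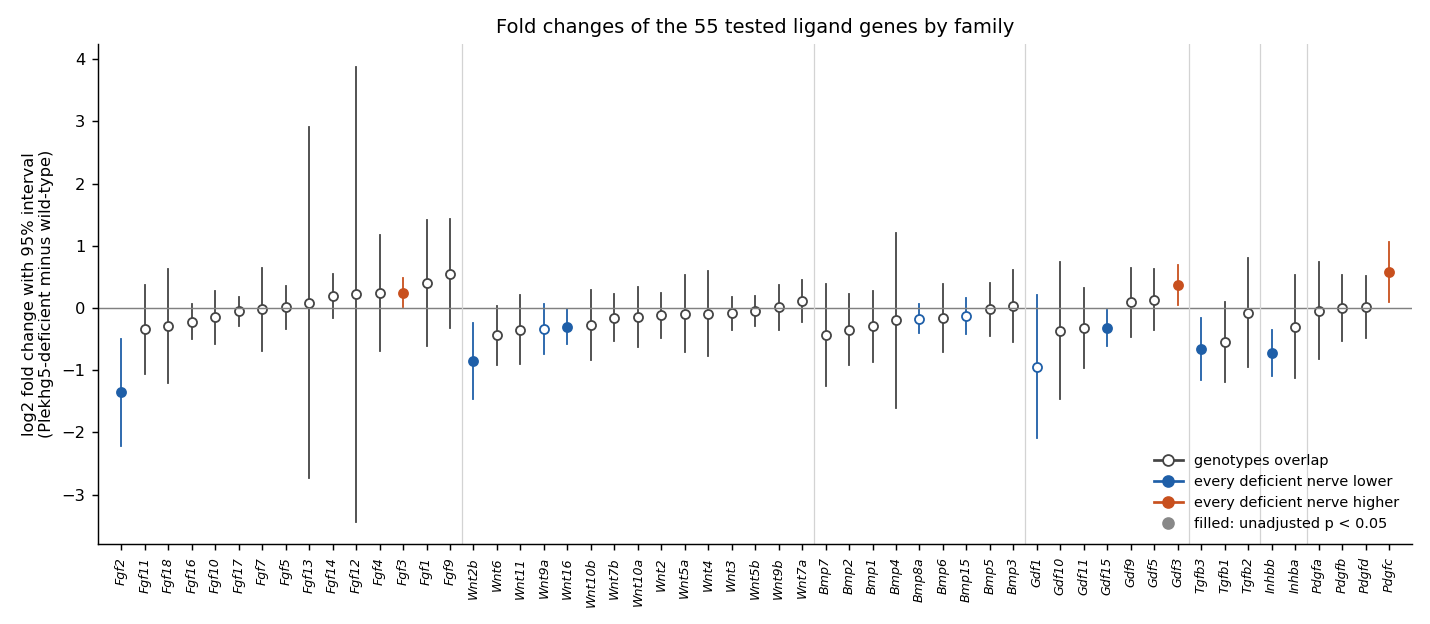
Log2 fold changes (Plekhg5-deficient minus wild-type) with 95% intervals of the 55 tested ligand genes, grouped by family from Fgf on the left to Pdgf on the right. Colour marks genes whose genotypes did not overlap, and filled points mark an unadjusted p under 0.05. The 13 Wnt genes and 8 Bmp genes below 0 and the wide intervals of Fgf12 and Fgf13 can be seen.

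By family, the fold changes were below 0 for 13 of 15 Wnt genes (median -0.14), 8 of 9 Bmp genes (median -0.17), 4 of 7 Gdf genes (median -0.32), all 3 Tgfb genes (median -0.55) and both activin subunit genes (median -0.51). The Fgf genes were divided, with 7 below and 8 above 0 (median 0.011), and so were the 4 Pdgf genes, with 1 below and 3 above 0 (median 0.010). With 3 animals against 3, the median standard error of a ligand's log2 fold change was 0.23, larger in size than the median of 4 of these 7 families.

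The smallest p among the ligands belonged to Inhbb, which encodes the beta B subunit of activins and of inhibin B. It lies on chromosome 1 of GRCm38 (chr1:119415465-119422248). The level was 1.07, 1.69 and 1.48 FPKM in the wild-type nerves 2, 4 and 5, against 0.398, 0.468 and 0.478 FPKM in the deficient nerves 2, 3 and 5. Every deficient nerve lay below all 3 wild-type nerves, and the 95% intervals that Cufflinks gave for each library did not meet either, since the lowest wild-type bound was 0.876 FPKM and the highest Plekhg5-deficient bound 0.659 FPKM. The mean was 3.16-fold lower (0.448 ± 0.0439 against 1.41 ± 0.314 FPKM, SD, n = 3), which gave a log2 fold change of -0.73 (SE 0.15, 95% interval -1.10 to -0.36, adjusted p = 0.540 from limma). Without both nerves numbered 5 the log2 fold change was -0.72. The other subunit gene, Inhba, was at 0.156, 0.228 and 1.62 FPKM in wild-type and 0.631, 0.170 and 0.0475 FPKM in the deficient nerves, which overlapped.

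Fgf2, which encodes basic Fgf, a mitogen of Schwann cells and fibroblasts, showed the lowest log2 fold change. It was measured at 1.52, 4.01 and 5.31 FPKM in the wild-type nerves 2, 4 and 5, against 0.860, 0.402 and 0.828 FPKM in the deficient nerves 2, 3 and 5. The genotypes did not overlap, but wild-type nerve 2 lay nearer to the Plekhg5-deficient nerves than to the other wild-type nerves. The mean was 5.19-fold lower (0.697 ± 0.256 against 3.61 ± 1.93 FPKM, SD, n = 3) and the log2 fold change -1.35 (SE 0.36, 95% interval -2.21 to -0.49, adjusted p = 0.739 from limma). The estimate of the single library was imprecise for this gene. The Cufflinks interval reached down to 0 in all 3 Plekhg5-deficient nerves, and that of wild-type nerve 2 (0.721 to 2.32 FPKM) overlapped with all of theirs. The locus that the tables give for Fgf2 (chr3:37312519-37405377) also spans Nudt6, transcribed from the other strand, which was at 10.2 to 13.2 FPKM in wild-type and 7.72 to 10.6 FPKM in the deficient nerves (log2 fold change -0.35). Whether the quantification used strand is not stated in the sources at hand, so reads of Fgf2 and Nudt6 may not have been told apart.

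Among the Wnt genes, Wnt2b (chr3:104944805-104961709), which encodes a Wnt that signals through beta-catenin, was at 3.84, 6.06 and 3.80 FPKM in the wild-type nerves 2, 4 and 5, against 2.73, 1.47 and 1.99 FPKM in the deficient nerves 2, 3 and 5. All Plekhg5-deficient nerves were lower, and the mean was 2.21-fold lower (2.06 ± 0.636 against 4.57 ± 1.30 FPKM, SD, n = 3; log2 fold change -0.86, SE 0.26, 95% interval -1.47 to -0.25, adjusted p = 0.798 from limma). The lowest wild-type Cufflinks bound, 3.18 FPKM, was just above the highest Plekhg5-deficient bound, 3.15 FPKM. Without both nerves numbered 5 the log2 fold change was -0.95.

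Tgfb3 (chr12:86056744-86079041), a Tgf-beta isoform, was the most abundant ligand gene whose genotypes did not overlap. It stood at 15.3, 15.5 and 22.1 FPKM in the wild-type nerves 2, 4 and 5, against 10.5, 9.26 and 12.4 FPKM in the deficient nerves 2, 3 and 5. Each Plekhg5-deficient nerve was lower, also by the Cufflinks intervals, whose lowest wild-type bound was 14.5 FPKM and highest Plekhg5-deficient bound 13.5 FPKM. The mean was 1.65-fold lower (10.7 ± 1.59 against 17.6 ± 3.84 FPKM, SD, n = 3) and the log2 fold change -0.66 (SE 0.21, adjusted p = 0.882 from limma), and -0.60 without both nerves numbered 5. Its locus overlaps with Ttll5, which was at 11.6 to 19.9 FPKM in wild-type and 8.62 to 24.0 FPKM in the deficient nerves.

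Pdgfc (chr3:81036416-81214040), which encodes a Pdgf that is cut outside the cell before it binds its receptor, was the single ligand above 1 FPKM that was higher in every Plekhg5-deficient nerve. It was at 1.74, 2.41 and 2.46 FPKM in the wild-type nerves 2, 4 and 5, against 4.49, 3.26 and 3.67 FPKM in the deficient nerves 2, 3 and 5. The genotypes did not overlap, while the Cufflinks intervals did, with a highest wild-type bound of 3.03 FPKM and a lowest Plekhg5-deficient bound of 2.78 FPKM. The mean was 1.73-fold higher (3.81 ± 0.628 against 2.21 ± 0.405 FPKM, SD, n = 3) and the log2 fold change 0.58 (SE 0.20, 95% interval 0.10 to 1.07, adjusted p = 0.928 from limma), and 0.66 without both nerves numbered 5.

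**Figure D3:**
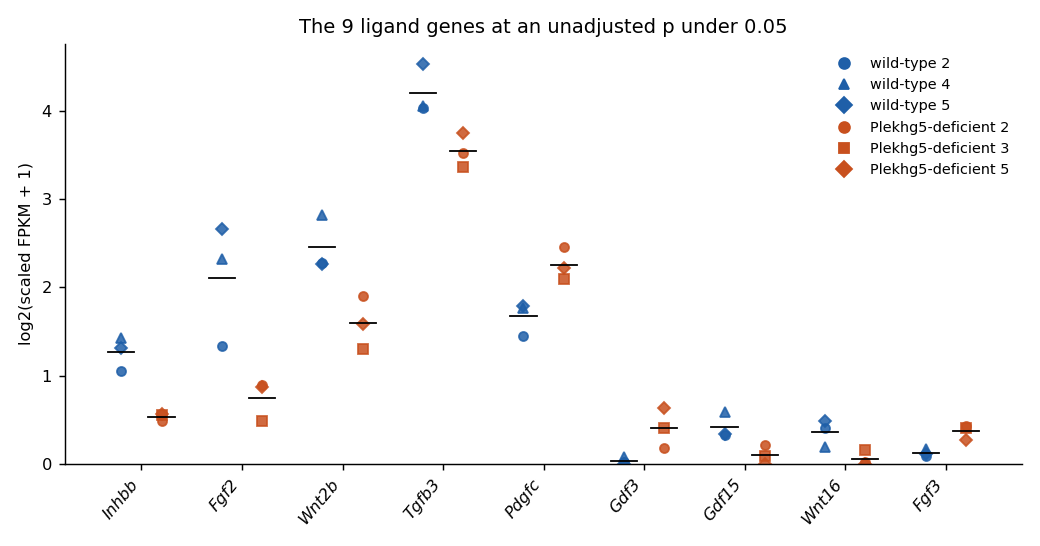
Levels in each sciatic nerve of the 9 ligand genes at an unadjusted p under 0.05, on a log2(scaled FPKM + 1) axis, ordered by p. Symbols show the animals and short bars the mean of 3 nerves per genotype. Inhbb is the tightest within the Plekhg5-deficient nerves (0.398 to 0.478 FPKM), and Gdf3, Gdf15, Wnt16 and Fgf3 lie near 0.

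The promoter windows of Inhbb, Fgf2, Wnt2b and Pdgfc are shown because these genes had the ligand levels of smallest p for which the RefSeq table (GRCm38.p6) holds a window. Tgfb3 has none there. Each run is the 250 bases before the start annotated by RefSeq, written from 5′ to 3′ on the strand of the gene, and capitals mark the motif matches described after them. Starts differ between annotations for 2 of these genes. The Fgf2 window lies inside the locus given above for Fgf2, and the Wnt2b window lies partly inside the gene of GENCODE M21, which ends at 104961921. The windows lie at chr1:119422249-119422498 (minus strand) for Inhbb, chr3:37348403-37348652 (plus strand) for Fgf2, chr3:104961710-104961959 (minus strand) for Wnt2b and chr3:81036166-81036415 (plus strand) for Pdgfc.
Inhbb: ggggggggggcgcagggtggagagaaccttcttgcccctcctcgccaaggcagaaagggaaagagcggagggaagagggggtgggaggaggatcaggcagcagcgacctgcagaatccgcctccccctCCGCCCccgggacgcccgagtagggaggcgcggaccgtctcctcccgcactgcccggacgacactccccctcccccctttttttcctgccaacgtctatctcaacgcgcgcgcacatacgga
Fgf2: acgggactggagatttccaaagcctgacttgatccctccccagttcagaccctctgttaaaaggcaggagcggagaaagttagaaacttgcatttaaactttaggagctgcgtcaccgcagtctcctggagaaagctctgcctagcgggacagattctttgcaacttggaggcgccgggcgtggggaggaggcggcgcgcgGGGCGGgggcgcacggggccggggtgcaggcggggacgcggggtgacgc
Wnt2b: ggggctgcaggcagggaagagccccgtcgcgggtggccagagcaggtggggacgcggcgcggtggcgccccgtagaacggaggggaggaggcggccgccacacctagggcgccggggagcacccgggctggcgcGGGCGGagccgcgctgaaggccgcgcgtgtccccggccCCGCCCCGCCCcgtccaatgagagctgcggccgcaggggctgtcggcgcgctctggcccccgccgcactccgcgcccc
Pdgfc: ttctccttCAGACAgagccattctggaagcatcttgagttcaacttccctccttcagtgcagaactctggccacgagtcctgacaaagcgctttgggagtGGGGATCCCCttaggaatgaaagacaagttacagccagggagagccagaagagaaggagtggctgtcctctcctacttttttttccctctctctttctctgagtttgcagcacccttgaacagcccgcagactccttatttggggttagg
The windows of the lower 3 were rich in G and C, at 68.0% for Inhbb, 62.4% for Fgf2 and 80.8% for Wnt2b, while that of Pdgfc was at 50.8%. The median was 52.4% over all 32851 windows of the table and 63.6% over the 52 windows of 40 tested ligands. The letters searched on both strands were TATAAA for the TATA box, GGGCGG for the GC box that Sp factors bind, TGANTCA for AP-1, CTTTGAT for Tcf/Lef factors and CAGACA for Smad proteins, together with the NF-κB consensus. GGGCGG occurred once in Inhbb (from 122 to 117 bases before the start), once in Fgf2 (49 to 44) and 3 times in Wnt2b (116 to 111, 78 to 73 and 73 to 68), where the last 2 matches overlap by a base on the other strand. That motif was in 32.7% of all windows and in 63.5% of the ligand windows. The window of Pdgfc held CAGACA from 242 to 237 bases before the start and an NF-κB match from 150 to 141. These occurred in 17.1% and 7.25% of all windows and in 15.4% and 13.5% of the ligand windows. None of the 4 windows held TATAAA (12.4% of all windows), TGANTCA (6.75%) or CTTTGAT (3.21%).

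Other members whose genotypes did not overlap had smaller differences or lower levels. Wnt9a (chr11:59306928-59333552), a Wnt that signals through beta-catenin, was at 2.60, 2.19 and 1.98 FPKM in wild-type and 1.53, 1.58 and 1.60 FPKM in the deficient nerves (log2 fold change -0.34, SE 0.17, adjusted p = 0.974 from limma). Bmp15, known as an oocyte factor, was at 0.638, 0.797 and 0.715 FPKM against 0.572, 0.552 and 0.570 FPKM, a log2 fold change of -0.13. These differences were separated by library but small.

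Gdf15, a stress-responsive cytokine, was at 0.255, 0.505 and 0.264 FPKM in the wild-type nerves and at 0.164, 0.0627 and 0 FPKM in the deficient nerves. Wnt16 was at 0.329, 0.140 and 0.398 FPKM against 0.0172, 0.116 and 0 FPKM, and Bmp8a at 0.102, 0.121 and 0.238 FPKM against 0, 0 and 0.0758 FPKM. In the other direction, Gdf3, a ligand related to Nodal, was at 0.0184, 0.0547 and 0 FPKM in wild-type and at 0.133, 0.326 and 0.547 FPKM in the deficient nerves. None of these exceeded 0.547 FPKM in any library, and each had passed the filter through the genotype in which it was higher. The same holds for Fgf3, at 0.0636, 0.126 and 0.0793 FPKM in wild-type and 0.344, 0.329 and 0.207 FPKM in the deficient nerves. Gdf1 was listed at 3.25, 0.0138 and 0.670 FPKM in wild-type and at no more than 0.00658 FPKM in the deficient nerves. It is known to share a transcript with Cers1, and its locus also overlaps with Upf1, so its values are uncertain. Cers1 was at 1.11, 2.5 and 3.48 FPKM in wild-type and 2.91, 3.24 and 1.69 FPKM in the deficient nerves, which overlapped.

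The most abundant ligands overlapped between the genotypes, apart from Tgfb3. Fgf1 was at 77.7, 112 and 55.7 FPKM in wild-type and 131, 149 and 58.1 FPKM in the deficient nerves (log2 fold change 0.40, SE 0.42), with the lowest level of each genotype in nerve 5. Pdgfa was at 27.3, 31.2 and 22.4 FPKM against 31.9, 35.1 and 15.5 FPKM, and Fgf7 at 14.4, 26.5 and 17.5 FPKM against 23.3, 19.0 and 14.4 FPKM. The log2 fold changes of both were within 0.05 of 0, at -0.042 and -0.021, with standard errors of 0.33 and 0.28, so the intervals (-0.82 to 0.74 and -0.69 to 0.65) leave room for a change in either direction. Tgfb1, the isoform made by macrophages and many other cells, was at 14.6, 17.2 and 24.2 FPKM in wild-type and 10.2, 10.4 and 16.7 FPKM in the deficient nerves (log2 fold change -0.55, SE 0.27, adjusted p = 0.974 from limma). Plekhg5-deficient nerve 5 lay above 1 of the 3 wild-type nerves. Tgfb2, at 1.24 to 3.05 FPKM and 1.19 to 3.69 FPKM, had a log2 fold change of -0.075.

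Of the other Bmp and Gdf genes, Bmp7, an osteogenic Bmp, was at 11.5, 22.4 and 15.4 FPKM in wild-type and 14.1, 14.8 and 7.22 FPKM in the deficient nerves (log2 fold change -0.43, SE 0.34). Bmp1, the procollagen protease, was at 8.73 to 15.2 FPKM and 7.63 to 9.44 FPKM, and Bmp3, which antagonises other Bmps, at 4.83 to 6.88 FPKM and 4.23 to 7.20 FPKM. Gdf11, close in sequence to myostatin, was at 1.32 to 2.13 FPKM and 0.555 to 1.84 FPKM, and Gdf9, known as an oocyte factor, at 0.661 to 1.40 FPKM and 0.773 to 1.58 FPKM. None of these separated the genotypes. Among the Wnt genes, Wnt6 was at 7.12, 10.1 and 9.83 FPKM in wild-type and 5.87, 7.14 and 6.05 FPKM in the deficient nerves (log2 fold change -0.44, SE 0.20, adjusted p = 0.974 from limma), an overlap by a narrow margin in 1 pair of nerves. Wnt5a, which signals mostly without beta-catenin, at 2.36 to 3.16 FPKM and 1.71 to 3.88 FPKM, and Wnt10a at 1.80 to 3.08 FPKM and 2.05 to 2.21 FPKM overlapped, with the range of one genotype inside that of the other. Pdgfb and Pdgfd had log2 fold changes of 0.0026 (SE 0.22) and 0.018 (SE 0.21).

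On the log2(FPKM + 1) scale, the widest differences within a genotype were those of Fgf12 and Fgf13, which encode intracellular Fgf homologous factors. In both genotypes nerve 5 lay far below the other nerves. Fgf12 (chr16:28160120-28445227) was at 27.1 and 12.5 FPKM in the wild-type nerves 2 and 4, against 13.6 and 46.5 FPKM in the deficient nerves 2 and 3, but at 0.565 and 0.356 FPKM in wild-type and Plekhg5-deficient nerves 5. The lowest of the first 4 was 22.2-fold above the higher nerve 5. Fgf13 (chrX:59062145-59568071) was at 76.1, 56.1 and 7.49 FPKM in the wild-type nerves 2, 4 and 5, against 57.9, 99.0 and 6.60 FPKM in the deficient nerves 2, 3 and 5, a gap of 7.49-fold. Fgf11, at 3.36, 5.49 and 3.13 FPKM in wild-type and 3.41, 3.73 and 1.75 FPKM in the deficient nerves, was also lower in both nerves numbered 5, with a gap of 1.07-fold. Fgf14 showed no such order, at 0.548 to 0.677 FPKM and 0.555 to 0.978 FPKM. Between the genotypes, Fgf12 and Fgf13 had log2 fold changes of 0.22 (SE 1.53) and 0.087 (SE 1.18), the widest errors of all ligands, and 0.44 (SE 0.64) and 0.21 (SE 0.32) without both nerves numbered 5. The labels do not say what the numbers stand for.

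Neuronal transcripts moved with Fgf12 and Fgf13. Snap25, a synaptic vesicle fusion protein gene, was at 121, 59.5 and 10.3 FPKM in the wild-type nerves 2, 4 and 5, against 55.0, 219 and 4.39 FPKM in the deficient nerves 2, 3 and 5. Nefl, a neurofilament gene, was at 135, 55.5 and 2.59 FPKM and at 64.7, 253 and 0.925 FPKM. All 3 neuronal markers (with Syt1) were lower in both nerves numbered 5 than in the other 4 nerves by at least 2-fold. So were 5 of 5 sensory neuron genes (Scn10a, Calca, Trpv1, Prph and Isl1), a list chosen after the values were seen, whose sum was 646, 271 and 7.69 FPKM in wild-type and 393, 978 and 9.29 FPKM in the deficient nerves. Scn10a, the gene of a sodium channel of sensory neurons, was at 12.6 FPKM or more in the 4 other nerves and at 0.0284 and 0.0227 FPKM in the nerves numbered 5. No defining marker of the neuronal lists was at 0 in all libraries, and the part of neuronal transcripts in the levels of Fgf12 and Fgf13 was not tested.

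**Figure D4:**
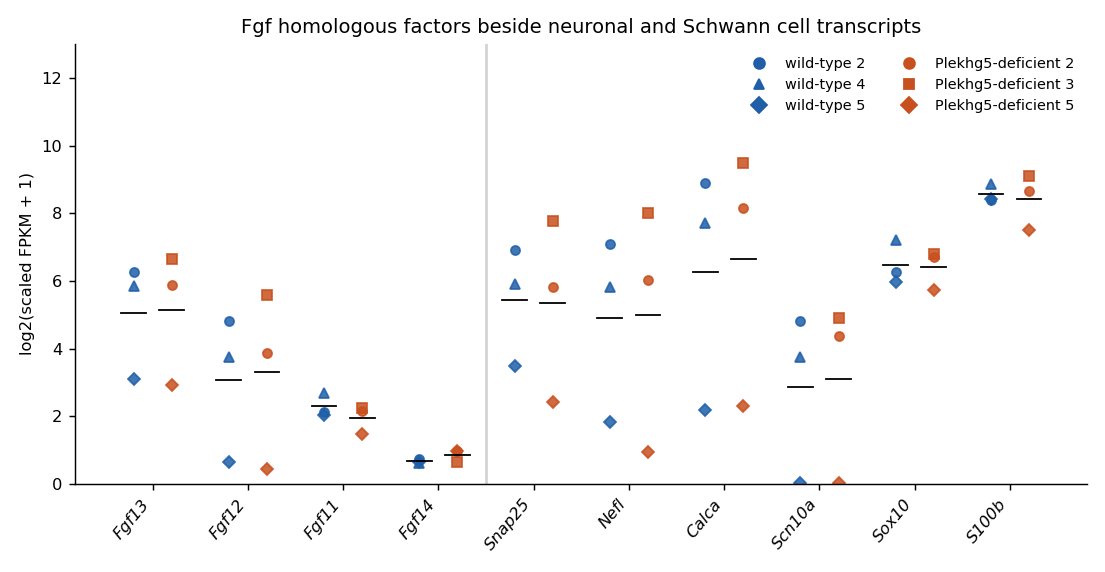
Levels of the 4 Fgf homologous factor genes beside neuronal (Snap25, Nefl, Calca, Scn10a) and Schwann cell (Sox10, S100b) transcripts in each sciatic nerve, on a log2(scaled FPKM + 1) axis. Symbols show the animals and short bars the mean of 3 nerves per genotype. The diamonds of both nerves numbered 5 lie far below the other 4 for Fgf13, Fgf12 and the neuronal transcripts, with Fgf12 at 0.565 and 0.356 FPKM.

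Over all tested ligands, 12 of 55 were lower in both nerves numbered 5 than in the other 4 nerves, where 17% of all genes were, and 8 of 55 were higher in both, where 15.3% were. Bmp4, a close relative of Bmp2, was among the higher ones, at 13.2 and 7.29 FPKM in the nerves numbered 5 and at 2.48 to 3.88 FPKM in the others, a gap of 1.88-fold. Gdf10 was another, at 19.5 and 16.2 FPKM against 5.46 to 11.8 FPKM. The marker sums of 7 of the 17 lists were also higher in both nerves numbered 5 than in the other 4: mural cells (1147 and 649 FPKM against at most 413 FPKM), endothelium (145 and 165 against at most 125 FPKM), macrophages (166 and 185 against at most 90.6 FPKM), T-cells, B-cells, lymph node and erythroid cells. Single genes of these lists overlapped with the other nerves. They were Cspg4 (mural cells), Cdh5 and Kdr (endothelium), Cx3cr1 (macrophages), Cd3g, Lck and Cd4 (T-cells) and Ms4a1 (B-cells). The sums of 3 lists (Schwann cell, neuron and sensory neuron) were lower in both, although only 2 of the 4 Schwann cell genes were. The part of these cells in the levels of Bmp4 and Gdf10 was not tested. Wild-type nerve 5, the nerve with lymphoid transcripts, was the highest library for 17 of 55 ligands, where it was the highest for 21.1% of all genes, and the log2 fold changes of Inhbb, Fgf2, Wnt2b, Tgfb3 and Pdgfc kept their direction without it.

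The receptors, extracellular regulators and targets of these ligands were read from lists of 118 genes, of which 113 were tested. These lists were also chosen with earlier results of these data known, so counts over them are descriptions. No gene of the lists was called by limma after adjustment. An unadjusted p under 0.05 was reached by 14 lower genes and 1 higher gene, against 2.69% and 2.41% of all genes, and the genotypes did not overlap for 21 in the lower and 3 in the higher direction, against 5.88% and 5.69%. The median log2 fold change was -0.18, and 89 of the 113 genes were below 0, where 48.9% of all genes were.

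Receptors held 3 of the 38 tested genes at an unadjusted p under 0.05, all of them lower. Over all genes, 2.69% were lower at this limit. Fzd1, a Wnt receptor, was at 7.83, 9.40 and 8.96 FPKM in wild-type and 7.25, 5.0 and 5.35 FPKM in the deficient nerves (log2 fold change -0.51, adjusted p = 0.961 from limma). Acvr2b, a receptor for activins, was at 0.415, 0.411 and 0.430 FPKM against 0.0998, 0.128 and 0.257 FPKM (log2 fold change -0.29), and Acvrl1, the endothelial Bmp receptor Alk1, at 13.6, 13.2 and 11.3 FPKM against 8.47, 5.30 and 10.6 FPKM (log2 fold change -0.63). The summed endothelial markers were at 89.5 to 145 FPKM in wild-type and 70.5 to 165 FPKM in the deficient nerves. Acvrl1 and this sum were both lowest in Plekhg5-deficient nerve 3, and the part of endothelial cells in the level of Acvrl1 was not tested. Of the 15 Wnt receptors tested, 14 had a fold change below 0, where 48.9% of all genes did, with a median of -0.22. The abundant receptors overlapped: Fgfr1 was at 30.8 to 34.8 FPKM and 28.1 to 31.8 FPKM, Tgfbr2 at 26.6 to 41.2 FPKM and 28.1 to 37.0 FPKM, Pdgfra at 9.14 to 13.8 FPKM and 9.53 to 15.1 FPKM, and Pdgfrb at 7.80 to 14.0 FPKM and 5.19 to 9.10 FPKM.

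Extracellular Wnt regulators showed the widest differences of these lists. Sfrp5, a secreted Frizzled-related protein that binds Wnt ligands, was at 321, 460 and 450 FPKM in the wild-type nerves and 252, 172 and 232 FPKM in the deficient nerves (log2 fold change -0.91, SE 0.25, adjusted p = 0.759 from limma). Its level was above that of any ligand gene in every nerve, though in Plekhg5-deficient nerve 3 only at 172 FPKM against 149 FPKM for Fgf1. All Plekhg5-deficient nerves were lower than the wild-type nerves. Sfrp2 of the same family was at 10.1, 6.95 and 29.3 FPKM against 2.99, 3.98 and 4.75 FPKM (log2 fold change -1.51), and Rspo1, which enhances Wnt signals, at 19.8, 27.1 and 17 FPKM against 14.1, 14.1 and 7.17 FPKM (log2 fold change -0.84). The 1 gene in the other direction was Wif1, a secreted inhibitor that binds Wnt ligands, at 0.159, 0.354 and 0.209 FPKM in wild-type and 0.895, 1.01 and 1.18 FPKM in the deficient nerves. Its mean was 4.28-fold higher (log2 fold change 0.71, SE 0.13, adjusted p = 0.447 from limma), the smallest p of the pathway lists. Among 23 Bmp and Tgfb regulators, 1 was lower at an unadjusted p under 0.05, against 2.69% of all genes. This was Nbl1, which encodes a Bmp antagonist, at 147, 207 and 193 FPKM against 117, 111 and 91.9 FPKM (log2 fold change -0.76, adjusted p = 0.759 from limma).

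Target genes were lower at an unadjusted p under 0.05 in 7 of 38 cases and higher in 0, against 2.69% and 2.41% of all genes. Of the 10 Wnt targets tested, 4 were lower at this limit. The fold change was below 0 for 8 of them, where 48.9% of all genes were below 0, and the median log2 fold change was -0.61. Ccnd1, which encodes cyclin D1, was at 17.8, 23.5 and 19.0 FPKM in wild-type and 12.7, 11.9 and 9.12 FPKM in the deficient nerves (log2 fold change -0.79, adjusted p = 0.678 from limma). Apcdd1, a Wnt-induced inhibitor of the pathway, was at 7.51, 11.7 and 9.98 FPKM against 6.31, 4.70 and 3.47 FPKM (log2 fold change -0.89). Every deficient nerve lay below all 3 wild-type nerves for both, and also for Nkd1 (log2 fold change -0.65) and for the transcription factor gene Lef1 (log2 fold change -0.71). Lef1 was at 3.63, 3.71 and 6.55 FPKM in wild-type and 2.54, 2.61 and 1.93 FPKM in the deficient nerves, with its highest level in wild-type nerve 5, the nerve with lymphoid transcripts. The best-known target of the list, Axin2, overlapped by a narrow margin in 1 pair of nerves, at 4.11 to 5.73 FPKM and 2.22 to 4.12 FPKM (log2 fold change -0.57, SE 0.24). It falls outside the rule for named genes and was chosen after its values were seen. Among 8 Tgfb targets (median -0.54), Postn, an extracellular matrix gene, was at 50.9, 77.7 and 63.1 FPKM against 41.3, 45.0 and 42.8 FPKM (log2 fold change -0.54). Among 11 Fgf targets (median -0.29), Etv4 and Spry4, a transcription factor gene and a feedback inhibitor gene, had log2 fold changes of -0.67 and -0.81. None of the 9 Bmp targets was at an unadjusted p under 0.05, with a median of -0.10. The part of the cell makeup of the nerves in these values was not tested.

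**Figure D5:**
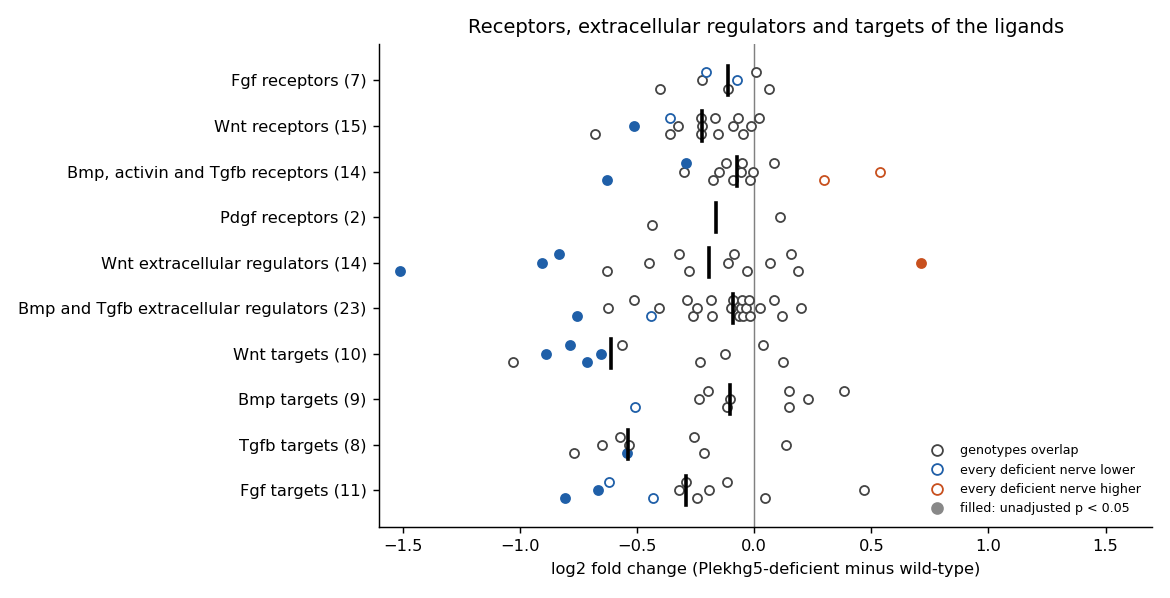
Log2 fold changes (Plekhg5-deficient minus wild-type) of the 113 tested receptor, regulator and target genes, 1 point per gene, with the number tested in brackets and a vertical bar at the median of each list. Colour marks genes whose genotypes did not overlap, and filled points mark an unadjusted p under 0.05. Wnt targets (median -0.61) and Tgfb targets (median -0.54) lie furthest to the left, and Wif1 (0.71) furthest to the right.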

How the data were processed

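RNA sequencing of 6 sciatic nerves, 3 per genotype, was analysed. The FPKM were made by the authors and deposited as 1 table per library: poly(A) libraries (SENSE mRNA-Seq kit, Lexogen) were sequenced on an Illumina NextSeq, trimming used Trim Galore 0.4.0, mapping to GRCm38 used STAR, and Cufflinks 2.2.1 gave FPKM with a 95% interval per gene. Read depth, strand setting and annotation release are not stated in the sources at hand, and no counts were used, so those intervals are the measure of precision within a library.

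Libraries were scaled by median-of-ratios factors (0.745 to 1.12). The 21285 genes that averaged 0.1 FPKM or more as deposited in either genotype were fitted on log2(FPKM + 1) with limma 3.58.1 (R 4.3.3), using a model of genotype only with a trend in the variance and Benjamini-Hochberg adjustment. The script was tested on simulated data. An exact two-sided permutation test on 1 gene can reach no p below 0.1 in this design. Cuffdiff, which the study used, needs reads and was not rerun. Tables were made with Python 3.11.15 and pandas 2.3.3, and figures with matplotlib 3.10.9.

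The members, the pathway lists and the marker lists were chosen with earlier results of these data known, so counts over them are descriptions. Genes named are Plekhg5, per family the 4 ligands of highest mean level, every ligand at an unadjusted p under 0.05 or without overlap between genotypes, and of each pathway list the 2 genes of highest mean level and up to 4 per direction at an unadjusted p under 0.05, beside markers of cell types and genes that overlap the loci of these ligands. Of those of highest level, Fgfrl1, Fzd2, Ryk, Eng, Sfrp4, Fstl1, Id2, Id3, Col1a1, Spry1 and Spred2 are included in the counts and not described one by one. Chosen after their values were seen were Fgf4, Fgf11, Fgf14, Axin2, Tcf7 and the sensory neuron list. Coordinates are those of the authors' tables, 44 of which equal GENCODE M21 for the 71 members. As alternatives, the pseudocount was set to 0.1 or 0.5, the filter to 1 FPKM or to none, scaling was left out or set to the upper quartile, the variance was fitted without a trend, robustly or with array weights, and genes without OK status were dropped, beside leaving out each library or both numbered 5, and a replicate block.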

Additional observations from a re-analysis of the deposited data

How the results depend on the processing

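No ligand was called at an adjusted p under 0.05 under any of the 18 alternatives. Depth is unknown, the Cufflinks interval of some ligands such as Fgf2 reaches 0, and with 3 animals per genotype the interval of most ligands spans 0. Of the ligands at an unadjusted p under 0.05, 1 was higher with a minimum of 1 FPKM (35 ligands tested, 2.59% of all genes), 1 with FPKM as deposited (1.12%) and 1 without a variance trend (2.6%), and with array weights 11 were lower (5.52%). With the minimum of 1 FPKM, 6 were lower and 1 higher without overlap (5.83% and 5.82% of all genes). The median log2 fold change was -0.29 with a pseudocount of 0.1, -0.18 with 0.5, -0.070 without a filter, -0.20 with FPKM as deposited, which also moved the median of all genes to -0.094, and -0.069 with array weights. Without both libraries numbered 5, 17 were lower and 7 higher without overlap (17.8% and 18.8% of all genes), and the median was -0.072. Leaving out each library in turn gave 4 to 7 lower and 0 to 5 higher ligands at an unadjusted p under 0.05 (1.59 to 3.48% and 1.58 to 2.84% of all genes), 11 to 16 lower and 3 to 7 higher without overlap (9.05 to 12.4% and 9.37 to 12.0%), and medians of -0.19 to -0.092. Of 587 values of 33 single ligands under the alternatives, 48 in 12 ligands changed sign and none was called; the causes were not tested. With FPKM as deposited, Fgf13 was at -0.060, Bmp3 at -0.11, Pdgfb at -0.14 and Pdgfd at -0.11, and with a pseudocount of 0.1 Pdgfb was at -0.0011. With array weights, Pdgfa was at 0.11, Fgf7 at 0.12, Bmp4 at 0.045, Wnt5a at 0.16 and Inhba at 0.15. Without both libraries numbered 5, Pdgfa was at 0.19, Fgf7 at 0.099, Bmp4 at 0.093, Pdgfb at -0.021, Wnt5a at 0.016 and Inhba at 0.21. Where libraries were left out, the values ranged from -0.99 to 1.65 for Fgf12, -0.90 to 1.20 for Fgf13, -0.58 to 0.43 for Bmp4, -0.25 to 0.31 for Pdgfa, -0.20 to 0.21 for Fgf7, -0.11 to 0.18 for Pdgfb, -0.084 to 0.16 for Pdgfd, -0.088 to 0.24 for Bmp3, -0.42 to 0.13 for Tgfb2, -0.088 to 0.26 for Gdf9, -0.51 to 0.21 for Inhba (0.080 without wild-type nerve 5) and -0.31 to 0.11 for Wnt5a.

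The genotypes share the numbers 2 and 5 only, and the labels do not say what a number marks. Deviations from the genotype means correlated at r = 0.58 between the nerves numbered 5, at 0.073 between those numbered 2 and at up to 0.46 between nerves of different numbers, across genes. With 2 shared numbers, these were not taken to pair the nerves. With a replicate block over those 4 nerves, an unadjusted p under 0.05 was reached by 3 lower ligands and 0 higher ones (3.58% and 1.93% of all genes), 5 were higher without overlap (14.4%), and Fgf13 was at -0.27, Fgf7 at 0.20 and Fgf12 at -0.57.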

Other observations

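Some ligand genes known from the embryo or the ovary were measured in the adult nerve. Fgf4, an Fgf of the early embryo, was at 4.98, 7.80 and 5.32 FPKM in the wild-type nerves 2, 4 and 5, against 10.8, 9.13 and 3.57 FPKM in the deficient nerves 2, 3 and 5, with a log2 fold change of 0.24 (SE 0.39). It was chosen after its values were seen. The levels were at or above those of Fgf2 in all 6 nerves, and the genotypes overlapped. The gene model of the authors' tables (chr7:144861386-144865243) starts later than that of GENCODE M21, which begins at 144847367. The oocyte factors Gdf9 and Bmp15 were above 0.5 FPKM in all 6 nerves. However, the Cufflinks interval of Gdf9 reached down to 0 in wild-type nerve 5 and to 0.027 FPKM in Plekhg5-deficient nerve 5.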
